A study of Mus musculus with 4 samples.

Results

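Fibronectin, tenascin-C, thrombospondins 1 and 2 and the main integrin subunits that bind them were followed through the cells of pancreatic tumors. The 10 genes were Fn1, Tnc, Thbs1 and Thbs2 for the ligands, and Itga5, Itgav, Itgb1, Itgb3, Itgb5 and Itgb6 for the receptors. They were chosen by symbol from the 32285 genes listed in the deposited tables, and each symbol was listed there. All tumors grew from KPC FC1242 cells, a single mouse line from a genetic model of pancreatic cancer, placed into the pancreas of obese C57BL/6 mice on a high-fat diet. There was 1 droplet single-cell RNA library for each of 4 groups: Pdgfrb-TK mice on ganciclovir (GCV) or on PBS, and wild-type (WT) mice on the peptide D-CAN or on PBS. GCV and D-CAN were given every other day. The labels gave an age of 7 months for all 4, whereas the methods of the study gave an older one. In Pdgfrb-TK mice the Pdgfrb promoter drives a thymidine kinase, so that GCV kills dividing cells that express Pdgfrb, pericytes among them as well as fibroblasts. D-CAN joins a peptide that homes to adipose stromal-like cells to a peptide that triggers apoptosis. The methods of the study state that cells of several tumors were pooled by treatment, while the labels name 1 mouse per library, so neither the spread between mice nor any test was available, and each interval below covers counting error only.

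Fibronectin and the tenascins are secreted matrix proteins that fibroblasts lay down in wounds and in tumor stroma, and thrombospondins are secreted proteins that sit in that matrix and modulate cell adhesion and growth factor activity. Integrins are pairs of an alpha and a beta chain at the cell surface that grip such ligands outside the cell and the actin cytoskeleton inside. The pair of Itga5 and Itgb1 is the classic fibronectin receptor. Itgav pairs with Itgb1, Itgb3, Itgb5 or Itgb6, and the pair with Itgb6 is a receptor of epithelial cells that also activates latent TGF-beta. Pancreatic cancer is known for a dense matrix of this kind.

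Many of these integrins recognize the short motif arginine-glycine-aspartate (RGD) in a ligand. The coding bases around each such motif in the longest annotated coding transcript of the ligands are shown because this motif links the ligand genes to the receptor genes described here, and the capitals mark the 3 codons. Which copies are bound was not measured.
Fn1, codon 1614: gtcactggcCGTGGGGACagtccagca
Fn1, codon 2181: catgttcccAGGGGAGACgtagactac
Thbs1, codon 927: ggtgatggcCGAGGTGACgcctgcaaa
Thbs2, codon 928: ggtgacggcCGAGGTGACatttgtaaa
The stretches of Fn1 lie in exon 30, at chr1:71606737-71606763, and in exon 40, at chr1:71597434-71597460, on the minus strand of mm10. Those of Thbs1 and Thbs2 each run across the junction of exons 17 and 18, within chr2:118122680-118122899 on the plus strand and chr17:14671475-14673144 on the minus strand. The longest coding transcript of Tnc, with 2110 codons, held 0 such motifs. The gene bodies were annotated on chromosome 1 (Fn1, 71585520 to 71653200), 4 (Tnc, 63959785 to 64047015), 2 (Thbs1, 118111876 to 118127133), 17 (Thbs2, 14665500 to 14694235) and 15 (Itga5, 103344286 to 103366763). The Itgav and Itgb6 genes were on chromosome 2, Itgb1 on 8, Itgb3 on 11 and Itgb5 on 16. Genes that the tables also list overlap Fn1 (Apol7d), Tnc (8030451A03Rik), Thbs1 (Gm29233) and Itgav (Gm13684) on the opposite strand, and whether the counting used strand was not given in the sources used here.

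RefSeq promoter sequences (build GRCm38.p6) were available here for 7 of the 10 genes. The 250 bases before the start are printed for Tnc and Itga5, which were both past 2-fold in the tumor cells after GCV, and for Thbs2, which was lower in fibroblasts in both comparisons. Capitals mark matches on either strand to the letters of a TATA box, spelled TATAAA. They also mark those of a GC box, spelled GGGCGG.
Tnc, chr4:64047016-64047265, minus strand: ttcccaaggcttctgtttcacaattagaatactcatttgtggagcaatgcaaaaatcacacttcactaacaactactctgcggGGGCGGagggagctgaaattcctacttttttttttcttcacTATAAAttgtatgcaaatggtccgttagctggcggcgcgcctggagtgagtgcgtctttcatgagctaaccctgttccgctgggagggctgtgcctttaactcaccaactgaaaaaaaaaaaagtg
Itga5, chr15:103366792-103367041, minus strand: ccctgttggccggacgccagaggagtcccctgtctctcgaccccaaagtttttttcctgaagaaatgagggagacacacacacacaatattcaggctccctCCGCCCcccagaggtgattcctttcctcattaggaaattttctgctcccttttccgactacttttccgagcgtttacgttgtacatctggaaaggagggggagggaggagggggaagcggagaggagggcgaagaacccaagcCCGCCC
Thbs2, chr17:14694263-14694512, minus strand: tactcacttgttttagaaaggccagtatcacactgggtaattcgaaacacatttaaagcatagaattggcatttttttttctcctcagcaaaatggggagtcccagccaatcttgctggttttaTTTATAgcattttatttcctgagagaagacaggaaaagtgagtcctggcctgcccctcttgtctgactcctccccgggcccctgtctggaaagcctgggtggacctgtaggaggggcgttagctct
TATAAA was present in the windows of Tnc and Thbs2 and in 12.4% of 32851 windows of the same length in the table. GGGCGG was present 1 time for Tnc and 2 times for Itga5, and in 32.7% of all windows. The letters of an AP-1 site, TGANTCA, were searched in the same way and were found in 6.75% of all windows and in none of these 3. Those of a TEAD site, GGAATG, were found in 12.6% of all windows and in none of these 3. A match is a description of the letters and says nothing of binding.

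Cells were sorted into classes by the share of each class's marker genes detected in a cell, and none of the 10 genes was a marker. Cells labelled KPC-marker carried epithelial tumor markers, and the CAF-marker, endothelial (EC-marker), macrophage-marker, pericyte-marker and lymphocyte classes were set in the same way. Values are given throughout with the Pdgfrb-TK mice first (Pdgfrb-TK/GCV, then Pdgfrb-TK/PBS) and the wild-type mice after them (D-CAN, then WT/PBS). In this order the libraries held 12280, 10469, 10178 and 11627 cells with at least 200 genes. KPC-marker cells numbered 6844, 7477, 3734 and 5701, and CAF-marker cells 222, 411, 1170 and 1779. Pericyte-marker cells numbered 1, 21, 24 and 67. The median cell held between 4514.5 and 7421 unique molecular identifiers (UMIs, each counting 1 captured RNA molecule). The limit of 200 genes had removed 0, 26, 608 and 30 cells. Cells with more than 20% of their UMIs from mitochondrial genes made up 4.48%, 8.42%, 29.3% and 18.2% of those kept, most in D-CAN. Any 2 libraries shared between 26 and 42 cell barcodes. The targeted gene Pdgfrb stood at 59 UMIs per 1000000 UMIs of the class (CPM) in CAF-marker cells of Pdgfrb-TK/GCV and at 259 in Pdgfrb-TK/PBS. Hbb-bs, a hemoglobin gene of red blood cells, was at 156 CPM in KPC-marker cells of Pdgfrb-TK/PBS and at 5.72 or lower in the other 3 libraries, and its part in the results was not tested. UMIs mark transcript ends, and levels are compared here within a gene and not between genes.

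The 4 ligand genes were divided between the tumor compartments. Fn1 was highest in CAF-marker cells of every library, at 5113, 4241, 1940 and 2574 CPM, and next in macrophage-marker cells, at 2580, 2325, 1176 and 1069 CPM. EC-marker cells (1387, 479.6, 802 and 545 CPM) and KPC-marker cells (1085, 388, 676 and 469 CPM) were below both. T/NK-marker cells, which are not known as a source of fibronectin, carried 281, 199.9, 112 and 122 CPM, as free RNA from broken cells can give. The KPC-marker level was above theirs in each library, with intervals that did not overlap except in Pdgfrb-TK/PBS, where 7 UMIs in T/NK-marker cells gave an interval of 80.4 to 412 CPM. Neutrophil-marker cells carried more, at 889, 295, 136 and 253 CPM, and in Pdgfrb-TK/GCV their interval of 804 to 981 CPM came near the KPC-marker level. The Fn1 of neutrophil-marker cells was thus highest in the same library as that of KPC-marker cells, and the part of free RNA in the latter was not tested. KPC-marker cells, the most numerous class, held 61.6%, 61.4%, 58.2% and 37.1% of all Fn1 UMIs.

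Tnc was also highest in CAF-marker cells, at 351, 451, 772 and 1263 CPM. Thbs2 was the ligand most tied to them: they held 67.6%, 79.5%, 87.3% and 84.4% of its UMIs, and their level was 64.2, 253, 205 and 904 CPM. In KPC-marker cells Thbs2 was at 0.245, 0.726, 0.622 and 6.66 CPM. In the untreated wild-type library, neutrophil-marker cells carried 27.7 CPM (18.2 to 40.2), above the KPC-marker value there. The part of free RNA in that KPC-marker value was not tested, and the other 3 values rest on 24 to 55 UMIs. Thbs1 had the widest range of sources. Macrophage-marker cells carried 939, 542, 552 and 1416 CPM and EC-marker cells 1748, 303, 721 and 242 CPM. Neutrophil-marker cells carried 466, 848, 479.5 and 675 CPM. CAF-marker cells carried 287, 298, 690.1 and 781 CPM, and KPC-marker cells 113, 27.8, 30.4 and 38.9 CPM.

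**Figure D1:**
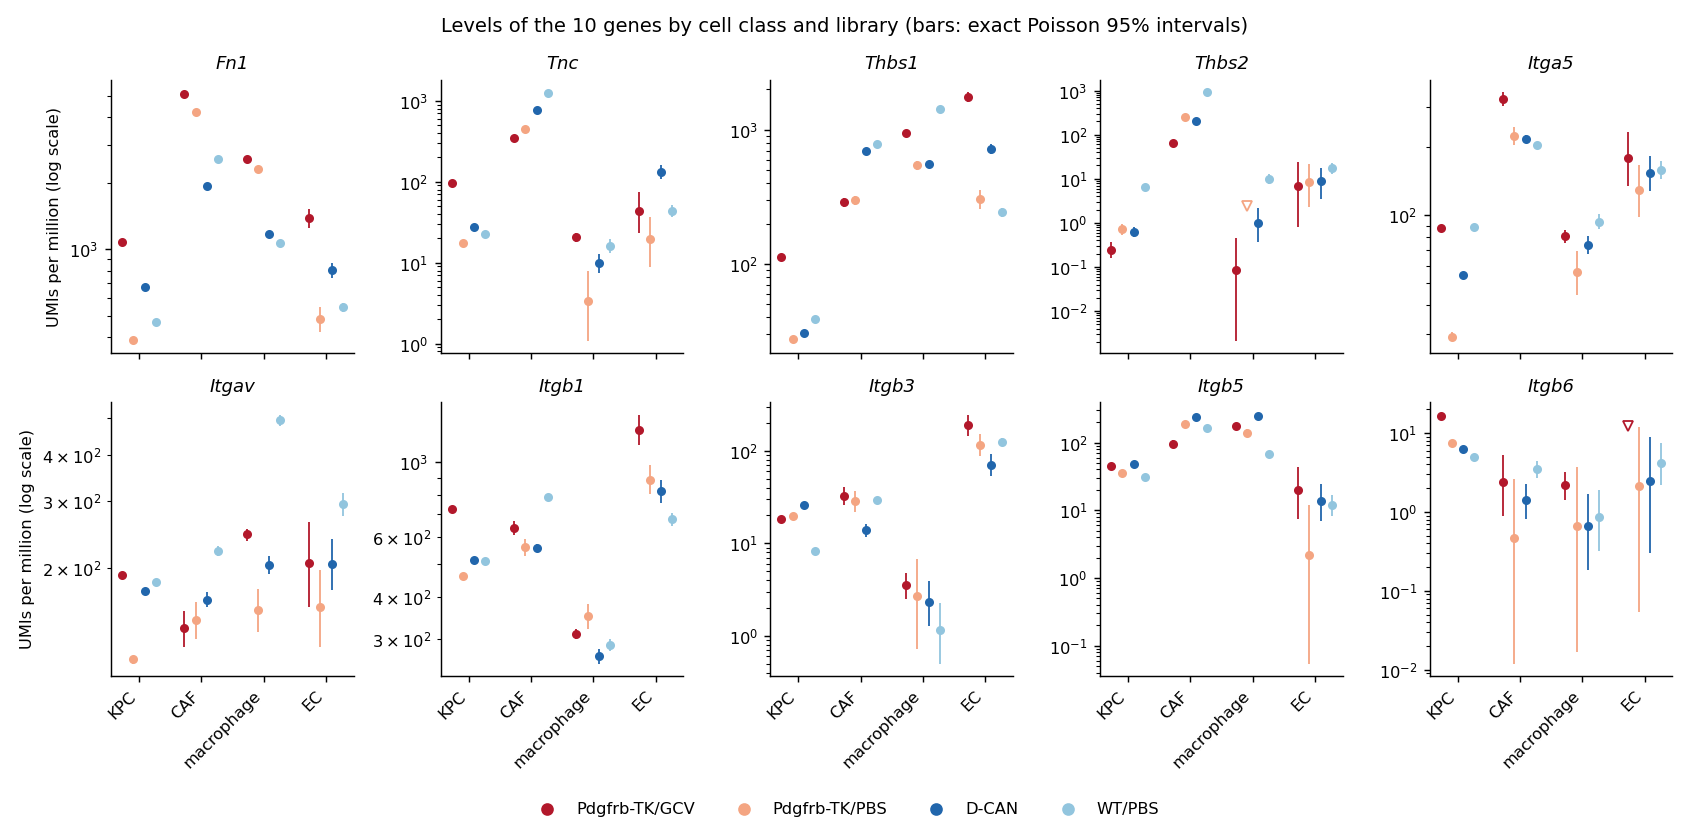
Each panel shows 1 gene, with its level in CPM on a log axis for KPC-, CAF-, macrophage- and EC-marker cells. Points are the 4 libraries, bars are exact Poisson 95% intervals, and open triangles are the upper limits where no UMI was counted. Of these 4 classes, Thbs2 is highest in CAF-marker cells and Itgb6 in KPC-marker cells in every library.

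**Figure D2:**
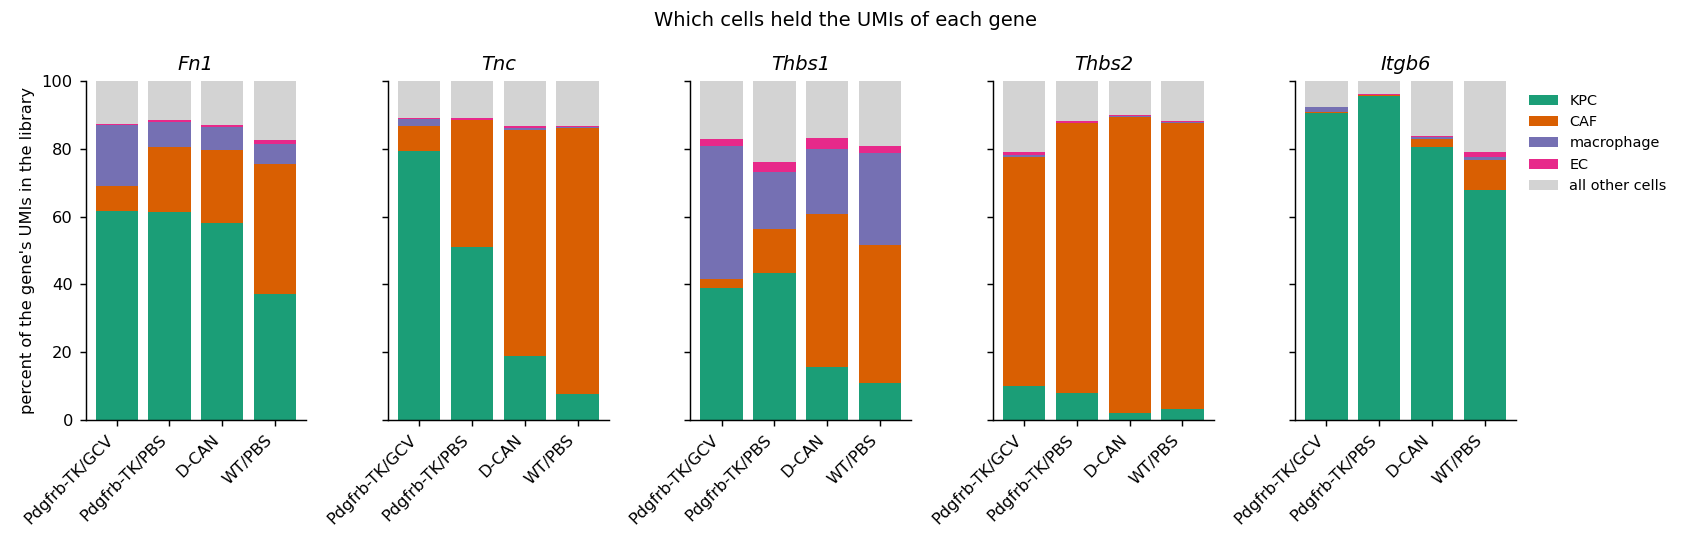
Stacked bars give the percentage of all UMIs of a gene in each library that was counted in KPC-, CAF-, macrophage- and EC-marker cells, with all other cells in grey. Tnc UMIs came mostly from KPC-marker cells in Pdgfrb-TK/GCV (79.4%) and mostly from CAF-marker cells in WT/PBS (78.6%).

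The source of Tnc RNA in the tumor was not the same in all libraries. KPC-marker cells held 79.4%, 50.9%, 18.7% and 7.48% of the Tnc UMIs, and CAF-marker cells held 7.45%, 37.5%, 66.9% and 78.6%. These shares follow both the level per cell and the number of cells captured: CAF-marker cells made up 1.81%, 3.93%, 11.5% and 15.3% of the cells. How dissociation of the tissue set those numbers was not tested. KPC-marker cells carried 95.7, 17.4, 27.7 and 22.6 CPM of Tnc. Neutrophil-marker cells carried 29.1, 16.6, 8.55 and 33.8 CPM, on 13, 6, 12 and 33 UMIs. The part of free RNA in the Tnc of KPC-marker cells was not tested.

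The integrin subunits differed in their spread over classes. Itgb1, the beta chain shared by most matrix receptors, was detected broadly, at 729, 462, 514 and 511 CPM in KPC-marker cells, 639, 561, 559 and 791 CPM in CAF-marker cells and 1245, 888, 819.5 and 677 CPM in EC-marker cells. Its partner for fibronectin, Itga5, was at 326, 224, 216 and 204 CPM in CAF-marker cells and at 88.1, 29.1, 54.6 and 89.1 CPM in KPC-marker cells. Itgb3, the beta chain known from platelets and vessels, was higher in EC-marker cells than in KPC-, CAF- and macrophage-marker cells, at 189, 116, 71.1 and 124 CPM. Itgb5, a vitronectin receptor chain, was lower there than in KPC-, CAF- and macrophage-marker cells, at 20.2, 2.15, 13.7 and 11.9 CPM in EC-marker cells, on 1 to 34 UMIs. It stood at 95.3, 185, 242 and 163 CPM in CAF-marker cells and at 176, 137, 244 and 68.7 CPM in macrophage-marker cells.

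Itgb6 was the subunit most tied to the tumor cells. KPC-marker cells held 90.5%, 95.6%, 80.6% and 67.8% of its UMIs, with levels of 16.2, 7.36, 6.26 and 5.02 CPM. Over all kept cells it was at 13.7, 6.81, 5.3 and 4.71 CPM, not far below the KPC-marker levels. KPC-marker cells held most of all UMIs in each library, so a high share of its UMIs is partly given by that. CAF-marker cells carried 3.49 CPM at most, and EC-marker cells of WT/PBS carried 4.21 CPM on 12 UMIs. Itgav was found in all classes, and in T/NK-marker cells it was at 175, 485, 411 and 661 CPM, on 51, 17, 1156 and 76 UMIs. In the last 3 of the libraries this was above the KPC-marker level of 114, 173 and 183 CPM, with intervals that did not overlap. In Pdgfrb-TK/GCV the T/NK-marker interval of 130.2 to 229.9 CPM held the KPC-marker value of 191 CPM.

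The 2 PBS libraries show how far libraries without treatment lay apart, although they also differ in genotype and handling, which cannot be told apart. In KPC-marker cells, Itga5 was 3.06-fold higher (95% interval 2.92 to 3.21) in WT/PBS than in Pdgfrb-TK/PBS, and Itgb3 was 2.41-fold higher (2.21 to 2.63) in Pdgfrb-TK/PBS. The widest gap in these cells was that of Thbs2, 9.17-fold higher (6.94 to 12.3) in WT/PBS, on 658 UMIs against 54. In CAF-marker cells, Thbs2 was 3.57-fold (3.28 to 3.9), Tnc 2.8-fold (2.62 to 2.99) and Thbs1 2.62-fold (2.42 to 2.84) higher in WT/PBS. In macrophage-marker cells Fn1 was 2.17-fold higher (2.09 to 2.26) in Pdgfrb-TK/PBS, while Itgav was 3.2-fold (2.8 to 3.67) and Thbs1 2.61-fold (2.43 to 2.81) higher in WT/PBS. Tnc was 4.84-fold higher there too (2.01 to 15.2), but on 5 UMIs in Pdgfrb-TK/PBS. These differences between PBS libraries were as large as many of those with treatment, so each treated library is given against the PBS library of its own genotype, followed for some genes by the value against the other PBS library. Of 51 log2 ratios in KPC-, CAF- and macrophage-marker cells, 31 kept their sign against the other PBS library, and of the 14 past 2-fold 5 stayed past it.

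The first comparison asked how the 10 genes stood in tumor cells after Pdgfrb-expressing cells were depleted. In KPC-marker cells of Pdgfrb-TK/GCV, 3 of the ligands and 2 of the receptor chains were more than 2-fold above Pdgfrb-TK/PBS. Tnc was 5.49-fold higher (5.18 to 5.82), Thbs1 4.07-fold (3.88 to 4.26), Itga5 3.02-fold (2.88 to 3.17), Fn1 2.8-fold (2.76 to 2.83) and Itgb6 2.2-fold (1.99 to 2.42). Thus 5 of the 9 genes with at least 100 UMIs were past 2-fold upward and 0 downward. Among all 13963 genes with that many UMIs, 4.21% were past 2-fold upward and 1.7% downward. The median log2 ratio of (CPM + 1) was 1.04 over the 9 genes and 0.10 over all genes. Itgav and Itgb1 were 1.68-fold (1.64 to 1.73) and 1.58-fold (1.56 to 1.6) higher, and Itgb5 1.27-fold higher (1.21 to 1.33). Itgb3 was at 18.4 and 19.9 CPM, a log2 ratio of -0.11, and against WT/PBS its ratio was 1.07. Itgav had a log2 ratio of 0.06 against WT/PBS, where it was 0.75 against Pdgfrb-TK/PBS. Thbs2 had too few UMIs, 24 and 54.

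Tnc, Thbs1, Fn1 and Itgb6 in Pdgfrb-TK/GCV were above all 3 other libraries, with levels of 95.7, 113, 1085 and 16.2 CPM. Itga5 was not: its 88.1 CPM lay beside the 89.1 CPM of WT/PBS, and only Pdgfrb-TK/PBS (29.1) and D-CAN (54.6) were lower. Against WT/PBS the log2 ratio of Itga5 was -0.02, where it was 1.56 against Pdgfrb-TK/PBS. Fn1 was detected in 87.5% and 57.6% of the KPC-marker cells of Pdgfrb-TK/GCV and Pdgfrb-TK/PBS, and in 68.9% and 37.3% once each cell was thinned to 2000 UMIs. The same shares in T/NK-marker cells were 51.5% and 28.6%, and 42.9% and 20% after thinning. These rest on only 99 and 21 cells, of which 29 and 16 had under 2000 UMIs and were left out after thinning. The Pdgfrb-TK/PBS shares are therefore very uncertain. The median cell held 11775 and 7598 UMIs among KPC-marker cells and 2495 and 1484 among T/NK-marker cells.

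**Figure D3:**
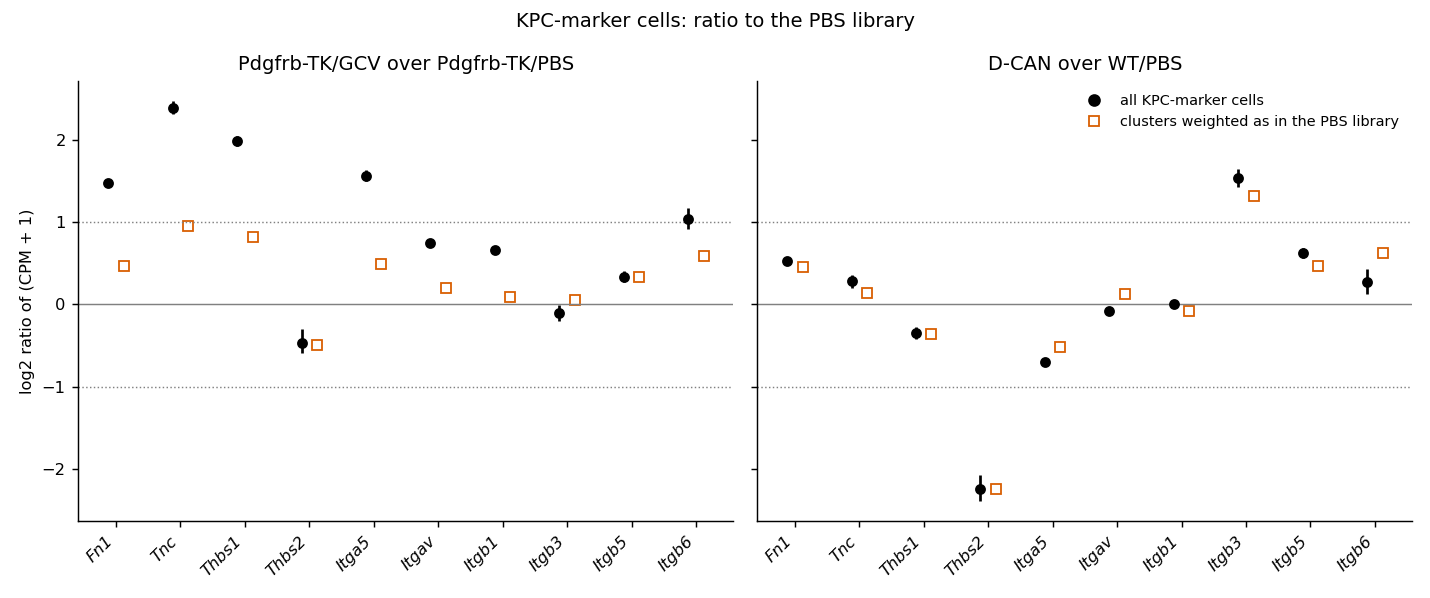
The log2 ratio of (CPM + 1) in KPC-marker cells is plotted for each gene, on the left for Pdgfrb-TK/GCV over Pdgfrb-TK/PBS and on the right for D-CAN over WT/PBS. Black points are all KPC-marker cells with 95% counting intervals, orange squares give both libraries the cluster makeup of the PBS library, and dotted lines mark 2-fold. After GCV the squares of Tnc (0.95), Thbs1 (0.82), Itgb6 (0.59), Itga5 (0.49) and Fn1 (0.47) lie under 2-fold. Thbs2 on the left rests on under 100 UMIs.

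KPC-marker cells were not of 1 kind. Clusters built from the other genes, with all 10 left out, divided them, and Fn1, Tnc, Thbs1 and Itga5 differed more between clusters 1 and 13 of either Pdgfrb-TK library than between the libraries within either cluster. In Pdgfrb-TK/PBS, Fn1 ran from 60.4 CPM in cluster 13, which was led by the gastric mucus genes Gkn2 and Tff1, to 1453 CPM in cluster 1, which was led by Piezo2 and Klhl1 and also by Hmga2, a chromatin gene of embryonic and tumor cells. Tnc ran from 1.04 to 122 CPM and Itga5 from 6.06 to 98.5 CPM between the same clusters. In Pdgfrb-TK/GCV cluster 1 had 1677 CPM of Fn1, 203 of Tnc, 190.1 of Thbs1 and 145 of Itga5, and cluster 13 had 129, 2.67, 5.13 and 11.7 CPM. Itgb6 was highest elsewhere, in cluster 3, which was led by Sprr1a and Csf2, with 35.4 CPM in Pdgfrb-TK/GCV and 17.3 in Pdgfrb-TK/PBS.

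The cluster makeup of the KPC-marker cells differed between the libraries. Cluster 1 held 28.6% of them in Pdgfrb-TK/GCV and 8.93% in Pdgfrb-TK/PBS, and cluster 13 held 3.1% and 16.8%. Cluster 6, led by Sptssb and Dmbt1, held 7.32% and 23%. When both libraries were given the cluster makeup of Pdgfrb-TK/PBS, a comparison added after the data were seen, 0 of the 9 genes were past 2-fold. Of all genes 0.974% then were, in either direction, against 5.92% before. The log2 ratio was 0.95 for Tnc in place of 2.39, 0.82 for Thbs1 in place of 1.99 and 0.59 for Itgb6 in place of 1.04. For Itga5 it was 0.49 in place of 1.56 and for Fn1 0.47 in place of 1.48. Itgav and Itgb1 stood at 0.20 and 0.09.

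Within clusters the direction was mostly upward and the size smaller. Fn1 was higher after GCV in 9 of 9 clusters with at least 50 cells in both libraries, by log2 ratios of 0.19 to 1.08, and past 2-fold in 1. Not all 9 were tumor cell clusters. Over all its cells, cluster 0 had a median of 46.9% mitochondrial UMIs and cluster 8 a median of 749.5 UMIs, and cluster 12 was a macrophage cluster. For the other 4 genes only clusters with at least 100 UMIs of the gene over both libraries were counted. Tnc was higher in 4 of 4 such clusters and past 2-fold in 3, with log2 ratios of 0.73 to 2.14. Thbs1 was higher in 6 of 7 and past 2-fold in 3, with log2 ratios of -0.50 to 1.44. Itga5 was higher in 7 of 7 and past 2-fold in 1, and Itgb6 in 6 of 6 and 1. In cluster 3, for example, Tnc was at 50.3 CPM in Pdgfrb-TK/GCV and 10.6 in Pdgfrb-TK/PBS, and Thbs1 at 78.7 and 30.3. Summed markers of other classes in KPC-marker cells of Pdgfrb-TK/GCV and Pdgfrb-TK/PBS were at 118 and 105 CPM for macrophages and 89 and 91.5 CPM for CAFs. They were at 71.7 and 31.3 CPM for ECs and 21 and 3.11 CPM for B cells, with every marker of these 4 lists detected in both libraries, and their part in these results was not tested.

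**Figure D4:**
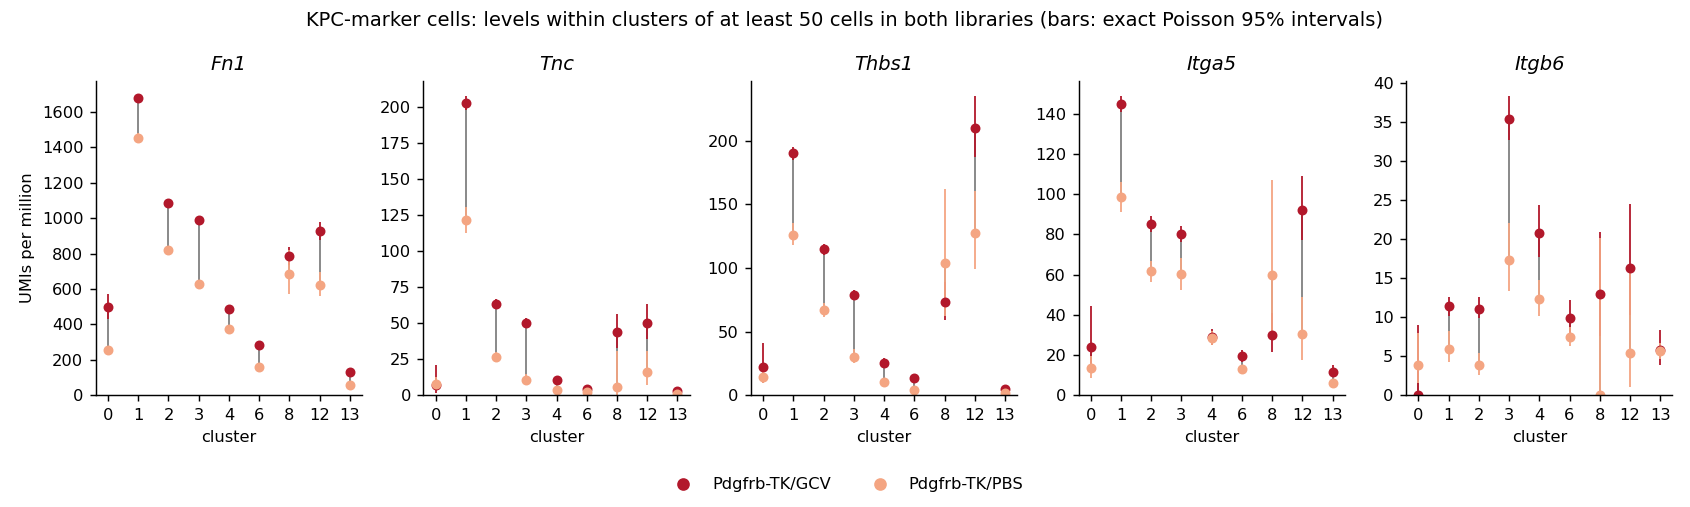
Levels of 5 genes in CPM are shown for KPC-marker cells of Pdgfrb-TK/GCV and Pdgfrb-TK/PBS within each cluster that had at least 50 of them in both libraries. Bars are exact Poisson 95% intervals and grey lines join the libraries. Fn1, Tnc and Itga5 are highest in cluster 1 in both libraries.

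**Figure D5:**
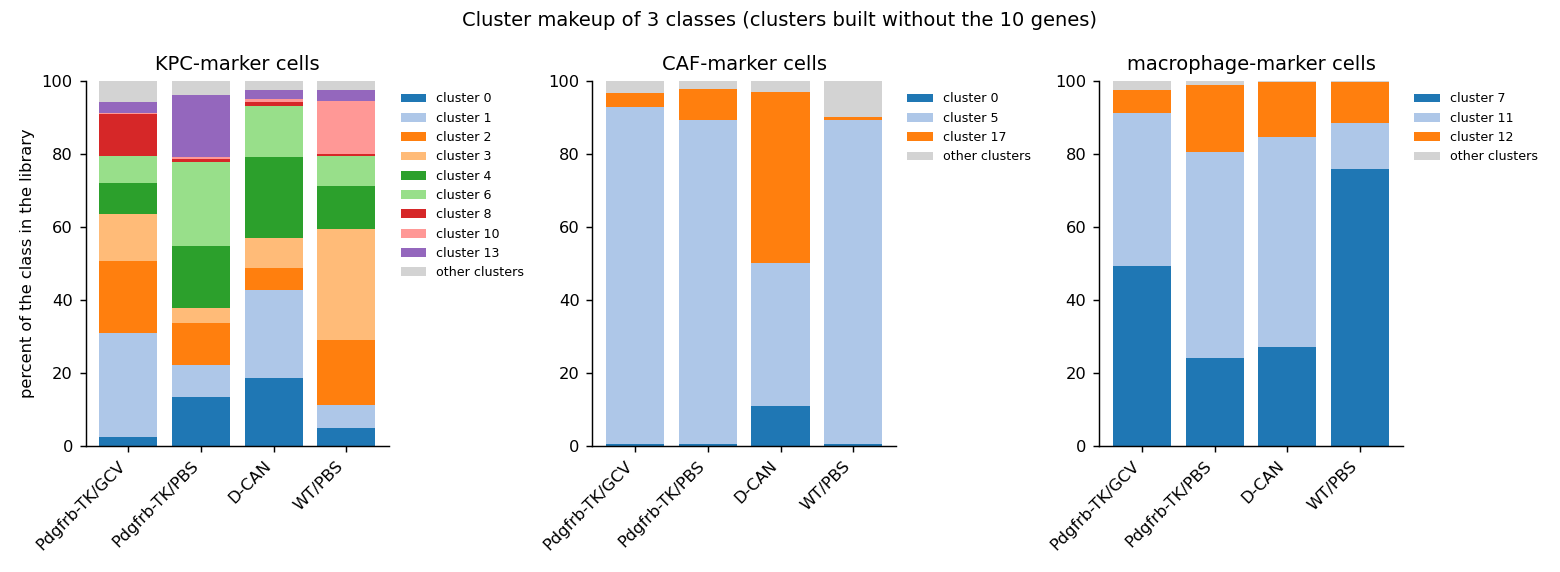
Stacked bars give the percentage of KPC-, CAF- and macrophage-marker cells of each library that fell in each cluster, with clusters under 10% in every library in grey. Cluster 1 holds 28.6% of the KPC-marker cells in Pdgfrb-TK/GCV and 8.93% in Pdgfrb-TK/PBS, and of the CAF-marker cells cluster 17 holds 46.9% in the D-CAN library but 0.843% in its control.

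The other genes of this adhesion system were followed as lists in the same tumor cells after GCV. Values of list genes, here and below, cover all cells of a class, without the step for cluster makeup. Of 21 other matrix ligands with at least 100 UMIs, 4 were past 2-fold upward and 1 downward, with a median log2 ratio of 0.14. The laminin chain Lama3 was 3.23-fold higher, at 17.6 and 5.46 CPM, and Tgfbi, a secreted ligand of several integrins, was 3.07-fold higher, at 6.66 and 2.17 CPM. The laminin chain Lamb1 (146 and 66.1 CPM) and Edil3 (27.7 and 12.8 CPM) were the others upward. Postn, a fibroblast matrix gene, was at 0.153 and 1.61 CPM, and the part of fibroblast RNA in these values was not tested. Of 16 other integrin subunits 1 was past 2-fold upward, the leukocyte chain Itgam, at 5.94 and 2.3 CPM. The part of leukocyte RNA in the Itgam of these cells was not tested. The syndecans Sdc2 and Sdc3, heparan sulfate co-receptors for fibronectin, were 5.48-fold and 2.94-fold higher, on 340 and 47 UMIs for Sdc2. Of 22 integrin adaptors 21 had a log2 ratio above 0, as did 62% of all genes, with a median of 0.39. The 1 past 2-fold was the kindlin Fermt2, at 42.1 and 14.4 CPM, beside the 4.21% of all genes past 2-fold upward.

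The same tumor cells after D-CAN gave another picture. Of the 10 genes, 1 was past 2-fold upward and 1 downward, where 9.32% and 2.6% of 14140 genes were, and the median log2 ratio was 0.14 over the 10 and 0.16 over all genes. Itgb3 was 3.14-fold higher (2.89 to 3.4), at 25.9 and 8.25 CPM. It was higher and past 2-fold in 6 of 6 clusters with at least 100 of its UMIs, and its log2 ratio was 1.32 with the cluster makeup of WT/PBS. The low library was WT/PBS, since Pdgfrb-TK/GCV and Pdgfrb-TK/PBS had 18.4 and 19.9 CPM, and against Pdgfrb-TK/PBS the log2 ratio of D-CAN was 0.37. The gene downward was Thbs2, at 0.622 and 6.66 CPM on 55 and 658 UMIs. The WT/PBS value lay below the neutrophil-marker level given above, and how much of it was free RNA was not tested. Against Pdgfrb-TK/PBS the log2 ratio was -0.09 in place of -2.24, so this count of 1 holds for the WT/PBS control only.

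Fn1 in KPC-marker cells was 1.44-fold higher (1.42 to 1.46) in D-CAN and higher in 7 of 7 clusters, and Itgb5 was 1.56-fold higher (1.49 to 1.63). These 7 included cluster 0, with its median of 46.9% mitochondrial UMIs. Itga5 was 1.63-fold lower (1.58 to 1.69) than in WT/PBS, but its log2 ratio was 0.88 against Pdgfrb-TK/PBS. The signs of Thbs1 (-0.35 and 0.12), Itgav (-0.08 and 0.60) and Itgb6 (0.27 and -0.20) also differed between WT/PBS and Pdgfrb-TK/PBS as the control. Itgb1 was at 514 and 511 CPM, a ratio of 1.01 (0.994 to 1.02). Among the genes around them, the integrin chain Itga1 was 2.56-fold higher, the secreted integrin ligand Edil3 2.6-fold and the kindlin Fermt1 2.24-fold. Of 23 other ligands 1 was past 2-fold upward and 3 downward, and of 16 other subunits 1 upward and 0 downward. Among all genes 9.32% were past 2-fold upward and 2.6% downward. The ligands downward included Postn (1.38 and 10.8 CPM) and Fbn1 (1.85 and 5.15 CPM). CAF markers summed over these KPC-marker cells were lower after D-CAN too, at 124 CPM where the control had 175. How much fibroblast RNA added to Postn and Fbn1 here was not tested.

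In CAF-marker cells after GCV, Thbs2 was the 1 gene past 2-fold. It was 3.94-fold lower (3.3 to 4.73), at 64.2 CPM in Pdgfrb-TK/GCV and 253 CPM in Pdgfrb-TK/PBS. Of 6213 genes 2.08% were past 2-fold upward and 3.67% downward, and of the 9 with enough UMIs here 0 and 1 were. Itgb5 was 1.94-fold lower (1.65 to 2.29), at 95.3 and 185 CPM. Fn1 was 1.21-fold (1.17 to 1.24) and Itga5 1.46-fold higher (1.3 to 1.63), while Tnc was 1.28-fold lower (1.17 to 1.41), and the interval of Thbs1 (0.863 to 1.07) held 1. Against WT/PBS the log2 ratios of Tnc and Thbs1 were -1.84 and -1.44 in place of -0.36 and -0.06, and that of Itgb1 was -0.31 in place of 0.19. The Pdgfrb-TK/GCV value rests on 222 cells, of which 92.3% were in cluster 5, led by Mgp and Col8a1, as were 88.8% in Pdgfrb-TK/PBS. Within cluster 5 Thbs2 was at 61.2 and 246 CPM, and Itgb5, at 89.7 and 185 CPM, was then past 2-fold as well. The summed CAF markers of these cells were at 12747 and 22526 CPM with 12 of 12 detected in both, and their part in the Thbs2 difference was not tested.

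Of 18 other ligands 6 were past 2-fold downward and 0 upward, where 3.67% and 2.08% of all genes were. Their median log2 ratio was -0.50, and that of all genes -0.09. Lama2, a laminin chain of mesenchymal basement membranes, was 9.7-fold lower at 16.4 and 159 CPM, and Postn was 4.78-fold lower at 110.1 and 526 CPM. The remaining 4 were Tnxb (17.5 and 63 CPM), Lama1 (12 and 38.3 CPM), Fbn1 (308 and 744 CPM) and Thbs3 (14.4 and 31.7 CPM). The collagen-binding chain Itga1 was 5.6-fold lower, at 17.1 and 96.1 CPM, and Itga9, a tenascin receptor chain, 2.08-fold lower at 76.2 and 158 CPM. Rgs5, a pericyte marker, was at 3.19 and 5.68 CPM in these cells, and the pericyte-marker sum was at 384 and 227 CPM.

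In CAF-marker cells after D-CAN, Thbs2 was 4.4-fold lower (4.21 to 4.59), at 205 CPM against 904 CPM in WT/PBS, and Itgb3 was 2.11-fold lower (1.77 to 2.54), at 13.8 and 29.2 CPM. These were the 2 of 9 genes past 2-fold, both downward. Of 11537 genes 11.7% were past 2-fold upward and 6.82% downward. Tnc was 1.64-fold lower (1.6 to 1.68), Itgb1 1.41-fold (1.37 to 1.46), Itgav 1.35-fold (1.28 to 1.43) and Fn1 1.33-fold (1.31 to 1.35), whereas Itgb5 was 1.48-fold higher (1.41 to 1.56). WT/PBS held the highest Thbs2 of the 4 libraries, and against Pdgfrb-TK/PBS, with 253 CPM, the log2 ratio of D-CAN was -0.30 in place of -2.13. With that control the ratio of Tnc was 0.77 in place of -0.71, that of Thbs1 1.21 in place of -0.18 and that of Itgav 0.18 in place of -0.43. Fn1 was at -1.13 in place of -0.41 and Itgb3 at -0.99 in place of -1.03, while Itgb1, at -0.50 with WT/PBS, was at -0.00.

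The fibroblasts of D-CAN were of another makeup. Cluster 5 held 39.1% of them and cluster 17, led by C3, Igf1 and Dpt, held 46.9%, while in WT/PBS cluster 5 held 88.9% and cluster 17 held 0.843%. Cells of cluster 17 in D-CAN had 1620 CPM of Fn1, 355 of Tnc, 119 of Thbs2 and 4.56 of Itgb3, and cells of cluster 5 in the same library had 2546, 1447, 349.7 and 28.6 CPM. Within cluster 5 the D-CAN and WT/PBS values were 2546 and 2620 CPM for Fn1, 1447 and 1299 for Tnc, 779 and 800.4 for Thbs1 and 28.6 and 29.99 for Itgb3. Thbs2 remained past 2-fold there, at 349.7 and 927 CPM. Thus, against WT/PBS, Itgb3 did not pass 2-fold within cluster 5, while Thbs2 did. In cluster 5 of Pdgfrb-TK/PBS, Thbs2 was at 246 CPM, below the D-CAN value.

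Among the other genes of the system in CAF-marker cells after D-CAN, Tnxb, tenascin-X, was 17.8-fold higher at 167 and 9.4 CPM, and Vtn, vitronectin, 10.2-fold higher at 59.8 and 5.86 CPM. The values in this paragraph cover all CAF-marker cells, and the part of their differing cluster makeup was not tested. Tnn, tenascin-N, was 7.73-fold lower on 15 and 190 UMIs. The basement membrane and elastic fiber genes Lama1 (82.9 and 29.6 CPM) and Emilin1 (299.8 and 81 CPM) were past 2-fold upward too, and Postn (589 and 1363 CPM) and Edil3 (4.05 and 16.2 CPM) downward. That made 4 of 25 other ligands in each direction, where 11.7% of all genes were past 2-fold upward and 6.82% downward. Of 11 other subunits 2 were past 2-fold in each, with the collagen receptor chain Itga11 2.59-fold higher and Itgb8, an activator of latent TGF-beta with Itgav, 2.11-fold lower. The other 2 were Itga2b (7.23 and 1.88 CPM) and Itga8 (2.29 and 6.61 CPM). Sdc1 was 2.25-fold lower, at 138 and 311 CPM.

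Macrophage-marker cells held much of the Thbs1 RNA: 39.4%, 16.9%, 19.1% and 27.3% of its UMIs. After GCV, Thbs1 was 1.73-fold higher (1.61 to 1.86) and Itgav 1.59-fold higher (1.39 to 1.83). With the cluster makeup of Pdgfrb-TK/PBS their log2 ratios were 0.25 and 0.58 in place of 0.79 and 0.67. Against WT/PBS both were below 0, at -0.59 and -1.01, while those of Fn1 and Itgb5 were 1.27 and 1.34 in place of 0.15 and 0.36. Only Tnc was past 2-fold among 7 genes, upward, where 4.34% of 9236 genes were past 2-fold upward and 1.63% downward. It stood at 20.5 and 3.34 CPM on 245 and 5 UMIs, and against WT/PBS its log2 ratio was 0.33. Neutrophil-marker cells of Pdgfrb-TK/GCV carried 29.1 CPM of Tnc (15.5 to 49.8, 13 UMIs) and T/NK-marker cells 6.86 CPM (0.83 to 24.8, 2 UMIs), whereas macrophage-marker cells of cluster 12 there carried 105 CPM (85 to 127). These cluster 12 cells also carried 8.45 CPM of Itgb6 and 678 of Itgb1. Macrophage-marker cells of the same library carried 1.94 and 312 CPM in cluster 7 and 1.26 and 232 CPM in cluster 11. The part of free RNA or of tumor cell RNA in the Tnc of macrophage-marker cells was not tested.

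After D-CAN, Itgb5 was 3.55-fold higher (3.2 to 3.95), at 244 and 68.7 CPM, while Thbs1 was 2.56-fold lower (2.46 to 2.67) at 552 and 1416 CPM and Itgav 2.43-fold lower (2.27 to 2.59) at 203 and 494 CPM. That was 1 of 7 upward and 2 downward, where 10.6% and 4.21% of 8698 genes were. Cluster 7, led by Chil3 and Arg1, and cluster 11, led by C1qa and Apoe, differed in these genes in the same direction in all 4 libraries. Thbs1 was at 1587, 1379, 1217 and 1668 CPM in cluster 7 and at 249, 180.5, 249.9 and 229.7 CPM in cluster 11. Itgb5 was at 112, 72.2, 141 and 63.5 CPM in cluster 7 and at 277, 176, 328 and 107 CPM in cluster 11. Cluster 7 held 49.2%, 24.1%, 27.2% and 76% of the macrophage-marker cells. With the cluster makeup of WT/PBS the log2 ratios after D-CAN were -0.46 for Thbs1, -0.71 for Itgav and 1.19 for Itgb5, in place of -1.36, -1.28 and 1.81. Against Pdgfrb-TK/PBS those of Thbs1 and Itgav were 0.03 and 0.40, that of Itgb5 was 0.83 and that of Fn1 was -0.98, where it was 0.14 against WT/PBS. The summed KPC markers in these cells were at 316 CPM after D-CAN, against 534 CPM in the control. Of 11 other integrin subunits 4 were past 2-fold upward after D-CAN and 0 downward, all of them chains found on leukocytes: Itgal (71.2 and 15.9 CPM), Itga4 (148 and 49.9 CPM), Itgam (301 and 121 CPM) and Itgax (133 and 53.1 CPM). Of 5 other receptors for fibronectin or thrombospondin, Sdc3 was upward (184 and 53.7 CPM), while Cd36 (24.8 and 55.7 CPM), Sdc1 (47.5 and 109 CPM) and Sdc4 (254 and 589 CPM) were downward.

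In EC-marker cells, which numbered 47, 140, 96 and 396, Thbs1, an inhibitor of vessel growth, was higher in both treated libraries. It was 5.76-fold higher (4.78 to 6.99) after GCV, on 518 and 141 UMIs, and 2.97-fold higher (2.66 to 3.33) after D-CAN, on 578 and 690 UMIs. The Thbs1 level of 1748 CPM after GCV was above that of every other class of the library. Fn1 was 2.89-fold (2.45 to 3.42) and 1.47-fold (1.34 to 1.61) higher. The summed CAF markers in EC-marker cells were at 564, 198, 209.6 and 360.4 CPM. They were highest in the library with the highest Fn1, but lower in D-CAN than in WT/PBS, although Fn1 was higher in D-CAN. The part of fibroblast RNA in the Fn1 of EC-marker cells was not tested. Itgb1 was 1.4-fold (1.21 to 1.62) and 1.21-fold (1.11 to 1.32) higher. Itgb3 was 1.63-fold higher (1.1 to 2.41) after GCV and 1.75-fold lower (1.32 to 2.36) after D-CAN. Tnc was 3.04-fold higher (2.32 to 3.97) after D-CAN. Tagln, a smooth muscle gene, was higher too, at 328 CPM where the control had 45.3, and so was Acta2 (165 against 10.5). The summed pericyte markers went the other way, with 175 CPM for the control but only 79.8 after treatment. Rgs5 (17.9 for the control, then 11.2) and the CAF-marker sum given above were also lower. So were the sums of KPC (738, then 508), macrophage (267, then 102) and neutrophil markers (41.8, then 31.2). The mesothelial sum was higher (29.2, then 125, with 3 of 8 markers detected after treatment). Higher too were the dendritic (155, then 241) and acinar (0.351, then 42.4) sums. The B-cell and T/NK sums were at 1.4 CPM or lower. The part of RNA from other cells in this Tnc difference was not tested.

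The genes whose levels ran most like each of the 10 over 26 points, each 1 class in 1 library, were found among 14116 genes by Pearson's r of log2 levels. The points share libraries and depth, so r is a description. Thbs2 was closest to Fibin (0.96) and to Col8a1 and Ptx3 (both 0.94), and Tnc to the collagen gene Col6a1 (0.93). Itgb1 was closest to Vim (0.93) and Itga5 to Map7d1 (0.91), and Rnase4 (0.89) was among the 3 genes closest to Fn1. Among the 10 genes the highest r was that of Tnc with Thbs2 (0.83), then Fn1 with Itgb5 (0.77) and Itga5 with Itgb1 (0.72), and the lowest was that of Itgb3 with Itgb5 (-0.46).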

How the data were processed

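The 4 groups were measured by droplet single-cell RNA sequencing, 1 library each. The authors aligned reads with Cell Ranger (STAR) to mm10 and deposited counts, whole UMI counts per gene and cell without normalization. The submitters' notes name STAR 2.6, and the Cell Ranger versions named by the file headers and the methods of the study differ. The protocol text of the labels describes nuclei of another tissue, and sample titles gave the groups. Whether intronic reads were counted was not given in the sources used here.

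From the deposited counts, cells with at least 200 genes were kept and 5 reporter features listed for only some libraries were left out. A cell took the class with the highest share of its markers detected, if at least 3 were detected and the share was at least 1.5 times that of the next class. The gate was set on these files, from 101 markers of 11 classes. Cells near the cut made up 11.8% to 22.8% of KPC-marker cells. Doublets were handled as an alternative only. UMIs were summed per library and class and given per 1000000 UMIs of that class (CPM), with exact Poisson 95% intervals. Folds have exact conditional binomial 95% intervals, and log2 ratios add 1 CPM. Genes with at least 100 UMIs over both libraries were counted, and past 2-fold refers to the log2 ratio. Cells are not replicates, so no p-value was computed. Clusters (scanpy 1.11.5, leidenalg 0.10.2) used 2000 variable genes without the 10 genes, 10 principal components, 20 neighbors and resolution 0.8. Beyond the 10 genes, up to 2 genes with the largest fold in each direction were to be named per list, in KPC- and CAF-marker cells, and for each of the 10 the genes with the highest r. The other genes past 2-fold and those of macrophage-marker cells were named after their values were seen. Some genes that the rule names are not reported here. The 10 genes, lists and tests were chosen with earlier results of these data known. The scripts were tested on simulated counts. Coordinates are from GENCODE M21 of mm10. Total UMIs per library ran from 84020317 to 155408336.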

Additional observations from a re-analysis of the deposited data

How the results depend on the processing

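In KPC-marker cells after GCV the count of genes past the threshold, 5 here at 2-fold, was 4 to 7 under every alternative but 1. The 7 belongs to a 1.5-fold threshold, which Itgav (log2 ratio 0.75) and Itgb1 (0.66) also passed. With both libraries given the cluster makeup of Pdgfrb-TK/PBS, an alternative added after the data were seen, the 2-fold count was 0. The genes were not always the same: with WT/PBS as control Itga5 (-0.02) was no longer past 2-fold and Itgb3 (1.07) was. In CAF-marker cells only cluster 5 had at least 50 cells in both libraries, so the makeup step there used cluster 5 alone. That was 39.1% of the CAF-marker cells of D-CAN. With it, CAF-marker cells had 2 after GCV in place of 1 and 1 after D-CAN in place of 2. With the PBS library of the other genotype, KPC-marker cells had 0 after D-CAN in place of 2, and CAF-marker cells 3 after GCV. At a 1.5-fold threshold the same counts, of KPC-marker cells after D-CAN and CAF-marker cells after GCV, were 4 and 2. Apart from the makeup step in KPC-marker cells after GCV, no share of all genes is given for these alternatives. The counts therefore describe the settings and cannot be read against all genes. In CAF-marker cells, thinning to 2000 UMIs gave 2 after GCV. After D-CAN the count was 1 with classes from clusters, without mitochondrial genes, after thinning and with a pseudocount of 5 CPM. Among values past 2-fold the sign turned 3 times, each with the other PBS library: Itga5 after GCV in KPC-marker cells (-0.02), and Thbs1 (0.03) and Itgav (0.40) after D-CAN in macrophage-marker cells. Of 14 values past 2-fold in 3 classes, 5 stayed past it with the other PBS library, 6 with the cluster makeup of the PBS library, 12 with the higher pseudocount and 13 each with classes from clusters, without mitochondrial genes and after thinning. All 14 did with doublet-like cells or damaged clusters left out, with 500 genes per cell, with a mitochondrial limit, with the stricter gate and with a pseudocount of 0.1 CPM. The cause of these shifts was not tested. No paired analysis was possible because each group had 1 library. With 1 library per group, neither mouse nor library variation can be measured, and genes under 100 UMIs, such as Itgb6 outside KPC-marker cells, were not counted as past 2-fold.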
